A study of Homo sapiens with 12 samples.

Results

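Epithelial-to-mesenchymal transition (EMT) is the programme by which cells loosen epithelial contacts and take on fibroblast-like traits. Its best-known transcript signs are a fall of E-cadherin and a gain of N-cadherin, called the cadherin switch. The genes described here are 6 EMT transcription factors (SNAI1, SNAI2, TWIST1, TWIST2, ZEB1 and ZEB2), both cadherins (CDH1 for E-cadherin and CDH2 for N-cadherin), the epithelial adhesion glycoprotein gene EPCAM and the intermediate filament gene VIM. They were taken by gene name from the deposited count table, 10 genes of 59498, and all 10 were found and passed the filter on low counts.

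RNA was sequenced from SKOV-3, an established human ovarian adenocarcinoma line, in 4 groups of 3 libraries. Resistant dKO libraries came from the cisplatin-resistant derivative SKOV-3 CDDP with a KDM5A/KDM5B double knockout, and resistant libraries from that derivative with the WT genotype. Parental dKO libraries came from SKOV-3 without drug resistance and with the same double knockout, and parental libraries from SKOV-3 with the WT genotype. KDM5A and KDM5B encode demethylases of lysine 4 on histone H3, and cisplatin is a platinum drug that crosslinks DNA. The labels do not say whether the resistant line or the knockouts are single clones, nor whether the libraries of a group are separate cultures, so that p-values here measure the spread between libraries, which may be technical.

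Totals ran from 15659352 to 19706754 counts per library, and levels below are CPM, read counts scaled to the library total and to TMM factors. The knockout label was checked by its transcripts. KDM5A lay at 12.0 to 17.6 CPM in resistant dKO against 33.4 to 39.9 in resistant libraries, and at 15.6 to 22.5 CPM in parental dKO against 30.9 to 41.5 in parental libraries. KDM5B lay at 28.3 to 84.8 CPM in resistant dKO against 39.5 to 111 in resistant libraries, and at 25.3 to 78.7 CPM in parental dKO against 43.0 to 79.7 in parental libraries. KDM5A was therefore lower in every knockout library, while the KDM5B groups overlapped. Of 7 markers of ovarian carcinoma epithelium and of this line, 5 or 6 reached 1 CPM in each group, with PAX8, a transcription factor of this lineage, at 157 to 616 CPM over all groups. The parental and parental dKO libraries numbered 3 stood apart from the others of their groups. Where leaving them out ended, gave or moved a call on a member, the value without them is given. In the resistant background, resistant dKO library 3 and resistant library 1 stood apart as well. Chi-square over degrees of freedom was 24.1 between resistant dKO libraries 1 and 2, against 106.5 and 105 with library 3. It was 30.4 between resistant libraries 2 and 3, against 126.8 and 165.7 with library 1. These resistant-background libraries were left out singly, not together.

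SNAI1 and SNAI2 encode zinc-finger repressors that bind CACCTG E-boxes and silence CDH1. TWIST1 and TWIST2 encode basic helix-loop-helix factors, and TWIST1 is known to raise CDH2. ZEB1 and ZEB2 encode repressors with a zinc-finger cluster at either end, and they and the miR-200 microRNAs silence each other. The miR-200 family silences ZEB1 and ZEB2 through seed matches in their 3′ UTRs. The 5 mature sequences are shown because they fall into groups by seed (bases 2 to 8, in capitals), and each seed has its own match in the ZEB transcripts. They were taken from RefSeq with GRCh38.p14 coordinates on the plus strand, at chr1:1167160-1167181, chr1:1169055-1169076, chr12:6963742-6963764, chr1:1167916-1167937 and chr12:6964155-6964176 in the order printed.
hsa-miR-200b-3p: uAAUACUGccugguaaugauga
hsa-miR-429: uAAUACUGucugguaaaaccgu
hsa-miR-200c-3p: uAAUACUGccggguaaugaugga
hsa-miR-200a-3p: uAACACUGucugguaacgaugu
hsa-miR-141-3p: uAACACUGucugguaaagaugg

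The 3′ UTR of ZEB1 (GENCODE 29 transcript ZEB1-202, 2549 bases) held 6 copies of CAGTATT, the match to the seed AAUACUG. Of 2382 3′ UTRs of similar length, a set that includes the ZEB1 UTR itself, 26% held the motif at all. The 0.042% that held as many copies is the ZEB1 UTR alone. The 3′ UTR of ZEB2 (transcript ZEB2-245, 5370 bases) held 5 copies. Of 1118 UTRs of similar length, again with its own among them, 45.7% held any. The 0.0894% with as many is the ZEB2 UTR alone. The other motif, CAGTGTT, matches the seed AACACUG, and stood 3 times in ZEB1 and 4 times in ZEB2. It was present in 29.5% of the UTRs compared with ZEB1, where 0.714% had as many copies, and in 51.8% of those compared with ZEB2, where 1.34% had as many. These shares also count the gene's own UTR. The search covered the transcript strand, and the motifs share no position. Examples are printed with the motif in capitals.
ZEB1 site 1: attgttttatcttatCAGTATTatcactct
ZEB1 site 2: atgctaaatccgcttCAGTATTttattatg
ZEB1 site 6: tcttttcatcattatCAGTATTttctttgg
ZEB2 site 1: cgcactaccatacatCAGTATTtttattat
ZEB2 site 2: cgcactacaatgcatCAGTATTatgattcc
A match is a description of the letters, not a measured site.

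Mature microRNAs are not captured in poly(A) libraries, and the few reads on miR-200 loci come from longer transcripts. These loci were chosen after their values were seen. MIR200B, MIR200A and MIR429 together held 0, 0 and 1 reads in resistant dKO, 0, 0 and 0 in resistant, 20, 6 and 14 in parental dKO and 32, 6 and 9 in parental libraries. Reads on this chromosome 1 stretch were thus seen in all 6 parental-background libraries and in 1 of the 6 resistant-background libraries. MIR200C, MIR141 and their host MIR200CHG had 0 reads in all 12 libraries, which over 211553859 counts allows a level of up to 0.0142 CPM by counting error alone.

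Resistant cells carried more N-cadherin transcript, less EPCAM and less TWIST1, and more SNAI1, than parental cells. CDH2 was 5.79-fold and SNAI1 6.97-fold higher, and EPCAM 8.50-fold and TWIST1 2.34-fold lower. The SNAI1 ratio rested on 218 reads in resistant and 31 in parental libraries. CDH1 was low in every library, and neither CDH1, VIM, SNAI2, TWIST2, ZEB1 nor ZEB2 passed the test. So 4 of the 10 genes passed edgeR's quasi-likelihood test at an adjusted p of 0.05, 2 higher and 2 lower, where 28.0% of the 17947 genes tested passed, 15.2% higher and 12.8% lower. The same 4 genes were the only members whose libraries did not overlap between the groups, where 23.7% of all genes were higher and 21.8% lower without overlap. Among knockout cells, resistant dKO against parental dKO, 4 of 10 passed as well, again CDH2 and SNAI1 higher and EPCAM and TWIST1 lower, where 23.9% of all genes passed, 13.6% higher and 10.2% lower. There SNAI1, TWIST2 and CDH2 were higher and ZEB1, TWIST1 and EPCAM lower without overlap, 6 of 10, where 20.3% of all genes were higher and 16.9% lower in that way. The median log2 fold change of the 10 genes was -0.019 in resistant against parental cells and 0.18 among knockouts, against 0.022 and -0.002 for all genes.

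**Figure D1:**
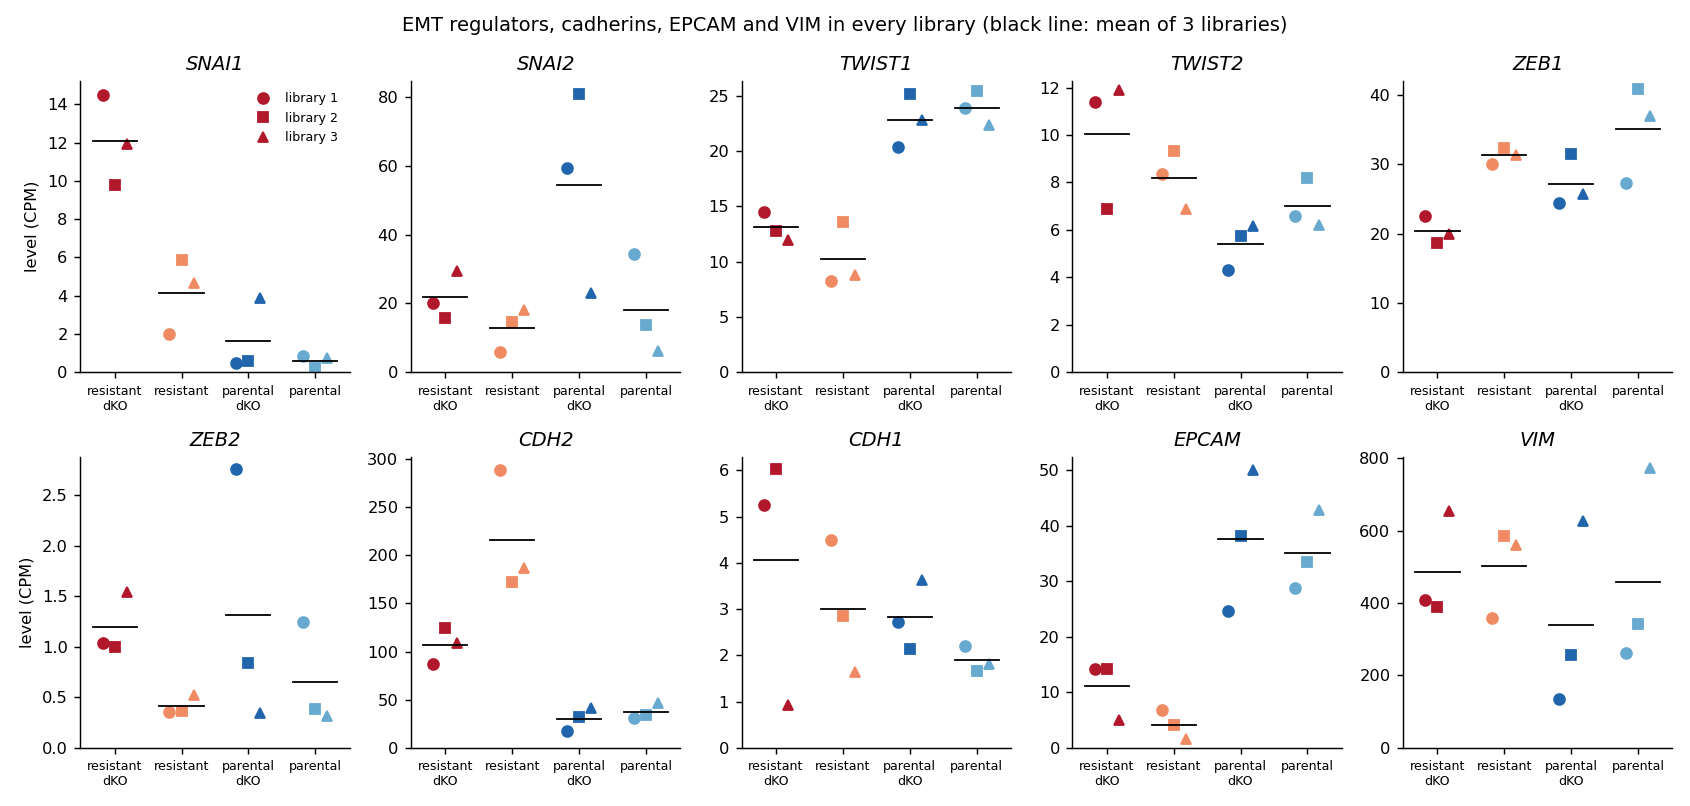
Levels of the 10 genes in CPM (y axis, from 0) in each library of the 4 groups (x axis); marker shape gives the library number and the black line the mean of 3. CDH2 and SNAI1 were higher and EPCAM and TWIST1 lower in resistant than in parental libraries without overlap, while VIM and CDH1 overlapped.

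CDH2 (ENSG00000170558, GRCh38 chr18:27950966-28177446, minus strand) encodes N-cadherin, the calcium-dependent adhesion protein of nerve and mesenchymal cells. It had 87.3, 125 and 109 CPM in resistant dKO, 289, 172 and 187 CPM in resistant, 17.7, 32.3 and 41.1 CPM in parental dKO and 30.8, 34.0 and 46.9 CPM in parental libraries. Every resistant-background library lay above every parental-background library, and the resistant libraries were the highest of all. The mean was 216 ± 63.7 CPM in resistant and 37.2 ± 8.53 CPM in parental libraries (SD, n = 3 each), a log2 fold change of 2.53 ± 0.35 (SE, edgeR adjusted p = 0.00025). Among knockouts the mean was 107 ± 18.8 CPM in resistant dKO and 30.4 ± 11.8 CPM in parental dKO (SD, n = 3 each), a log2 fold change of 1.82 ± 0.34 (SE, edgeR adjusted p = 0.00238). In these bulk libraries a larger share of cells with the transcript and more transcript per cell cannot be told apart.

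The RefSeq table of promoters held 12 entries for 5 of the 10 genes (ZEB1, ZEB2, TWIST2, VIM and CDH2). The 250 bases before a RefSeq start of CDH2 are printed because it is the member with the clearest change, at chr18:28177131-28177380 of GRCh38.p14 on the minus strand. This window lies within the GENCODE span given above for the gene. Another CDH2 entry, at chr18:28036642-28036891, is not printed.
CDH2 promoter: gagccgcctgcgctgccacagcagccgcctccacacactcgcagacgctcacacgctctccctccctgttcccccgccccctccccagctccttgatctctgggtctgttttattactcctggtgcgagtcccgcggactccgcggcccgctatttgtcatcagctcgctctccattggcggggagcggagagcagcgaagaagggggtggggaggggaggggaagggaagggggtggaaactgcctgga
These bases hold neither CACCTG, the letters bound by SNAIL and ZEB proteins, nor CAGCTG, another E-box, on either strand. Of 35116 promoters searched over the same length, 17.5% held CACCTG and 14% held CAGCTG. The ZEB1 entry with the most CACCTG, at chr10:31318966-31319215 on the plus strand, held it 2 times over both strands. The entry at chr10:31318167-31318416 held it 1 time, and the other ZEB1 entries held it 0 times.

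CDH1 (ENSG00000039068, chr16:68737225-68835548, plus strand) encodes E-cadherin, which holds epithelial cells together at adherens junctions. It had 5.25, 6.04 and 0.926 CPM in resistant dKO, 4.49, 2.86 and 1.63 CPM in resistant, 2.71, 2.13 and 3.62 CPM in parental dKO and 2.21, 1.67 and 1.81 CPM in parental libraries. All 4 groups overlapped, and the log2 fold change of resistant against parental cells was 0.66 ± 0.60 (SE, edgeR adjusted p = 0.439). Per length, CDH1 averaged 0.477 CPM per kilobase over all libraries and CDH2 19.7. In parental cells CDH1 averaged 0.307 ± 0.0457 and CDH2 7.52 ± 1.72 CPM per kilobase (SD, n = 3 each). The E-cadherin transcript was thus the scarcer of the pair in parental cells too.

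The reads of CDH2 per read of CDH1 show the balance of the cadherins within a library. They came to 16.6, 20.7 and 118 in resistant dKO, 64.3, 60.0 and 115 in resistant, 6.56, 15.2 and 11.4 in parental dKO and 13.9, 20.4 and 25.9 in parental libraries. Resistant libraries lay above all parental ones, whereas resistant dKO overlapped with resistant and with parental libraries. The third resistant dKO library rests on 15 reads of CDH1, so that its ratio is the least precise.

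EPCAM (ENSG00000119888, chr2:47345158-47387601, plus strand) marks epithelial cells and carcinomas. It had 14.1, 14.1 and 5.06 CPM in resistant dKO, 6.71, 4.14 and 1.52 CPM in resistant, 24.6, 38.1 and 50 CPM in parental dKO and 28.8, 33.4 and 42.9 CPM in parental libraries. Every parental-background library lay above every resistant-background library. The log2 fold change of resistant against parental cells was -3.09 ± 0.53 (SE, edgeR adjusted p = 0.00122), and that of resistant dKO against parental dKO -1.76 ± 0.50 (SE, edgeR adjusted p = 0.0225). The call among knockouts was lost without resistant dKO library 3 (edgeR adjusted p = 0.0609), without parental dKO library 2 (0.0505) and without parental dKO library 3 (0.0545), and was -1.55 with an edgeR adjusted p of 0.0523 without both parental-background libraries numbered 3. Reads of CDH2 per read of EPCAM were 6.19, 8.87 and 21.5 in resistant dKO, 43.0, 41.5 and 122 in resistant, 0.722, 0.848 and 0.822 in parental dKO and 1.07, 1.02 and 1.09 in parental libraries. The 4 groups did not overlap in this ratio, which is given without a test.

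**Figure D2:**
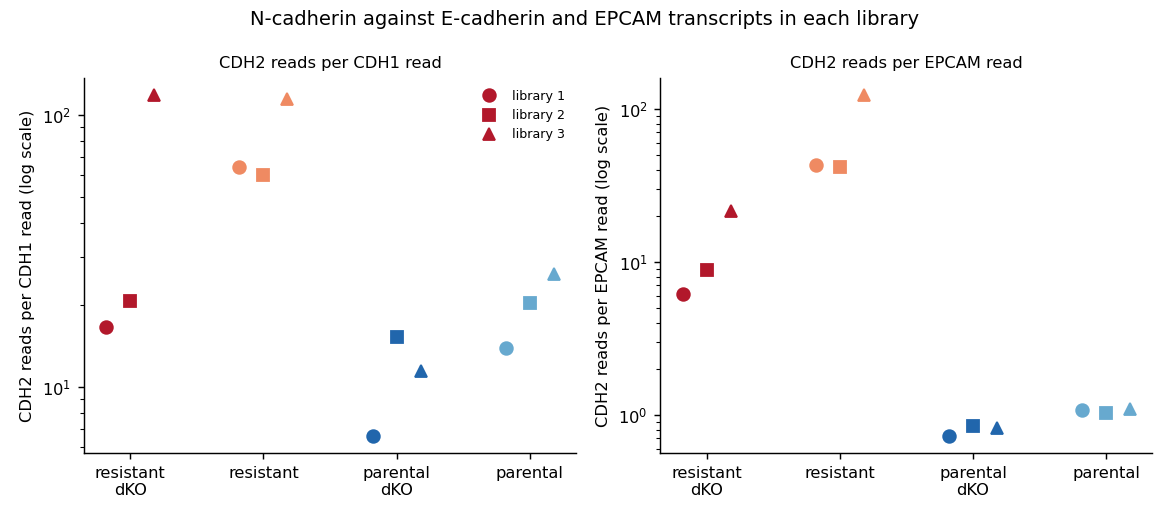
Reads of CDH2 per read of CDH1 (left) and per read of EPCAM (right), on log axes, in each library of the 4 groups (x axis); marker shape gives the library number. CDH2 reads per EPCAM read were 41.5 to 122 in resistant and 1.02 to 1.09 in parental libraries.

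SNAI1 (ENSG00000124216, chr20:49982999-49988886, plus strand) encodes SNAIL, a short-lived repressor of CDH1. It had 14.5, 9.80 and 11.9 CPM in resistant dKO, 1.98, 5.85 and 4.63 CPM in resistant, 0.451, 0.581 and 3.85 CPM in parental dKO and 0.836, 0.192 and 0.725 CPM in parental libraries. All resistant libraries lay above all parental libraries, and the resistant dKO libraries were the highest. The log2 fold change was 2.80 ± 0.79 in resistant against parental cells (SE, edgeR adjusted p = 0.0192) and 2.89 ± 0.76 in resistant dKO against parental dKO cells (SE, edgeR adjusted p = 0.0157). The call in resistant cells was lost without resistant library 2 (log2 fold change 2.48, edgeR adjusted p = 0.0620) and without parental library 2 (2.40, adjusted p = 0.0742). The call among knockouts was lost without parental dKO library 2 (2.49, edgeR adjusted p = 0.0547). The log2 fold change among knockouts was 4.53 without parental dKO library 3 (edgeR adjusted p = 0.000873), 4.49 without both parental-background libraries numbered 3 (edgeR adjusted p = 0.0012) and 3.53 by limma-voom (adjusted p = 0.00224).

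SNAI2 (ENSG00000019549, chr8:48917604-48921740, minus strand) encodes SLUG, its close relative. It had 20.2, 15.8 and 29.5 CPM in resistant dKO, 5.72, 14.5 and 18 CPM in resistant, 59.3, 80.9 and 23.0 CPM in parental dKO and 34.2, 13.8 and 6.01 CPM in parental libraries. Resistant libraries overlapped with parental ones and resistant dKO with parental dKO libraries, and library 3 was the lowest of both parental-background groups. The log2 fold change was -0.50 ± 0.61 in resistant against parental cells (SE, edgeR adjusted p = 0.573) and -1.32 ± 0.61 among knockouts (SE, edgeR adjusted p = 0.135). Without both parental-background libraries numbered 3 the change among knockouts was -1.72 (edgeR adjusted p = 0.0262). It also passed with no filter beyond 1 count (-1.32, edgeR adjusted p = 0.00354).

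TWIST1 (ENSG00000122691, chr7:19020991-19117672, minus strand) encodes a factor of mesoderm and neural crest cells. It had 14.5, 12.8 and 12.0 CPM in resistant dKO, 8.29, 13.6 and 8.78 CPM in resistant, 20.4, 25.2 and 22.8 CPM in parental dKO and 23.9, 25.5 and 22.4 CPM in parental libraries. No resistant-background library reached the lowest parental-background library. The log2 fold change was -1.23 ± 0.26 in resistant against parental cells (SE, edgeR adjusted p = 0.00434), which passed in all 20 alternatives run. It was -0.80 ± 0.26 in resistant dKO against parental dKO cells (SE, edgeR adjusted p = 0.0394), which passed in 10 of 20. That second call was lost when any single knockout library was left out, with edgeR adjusted p-values of 0.0512 to 0.110, without parental library 2 (0.0541), by library size alone without TMM factors (-0.63, adjusted p = 0.111), with no filter beyond 1 count (-0.81, adjusted p = 0.186) and without both parental-background libraries numbered 3 (-0.84, adjusted p = 0.0515).

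TWIST2 (ENSG00000233608, chr2:238848032-238910543, plus strand) did not follow TWIST1. It had 11.4, 6.87 and 11.9 CPM in resistant dKO, 8.35, 9.32 and 6.89 CPM in resistant, 4.31, 5.74 and 6.15 CPM in parental dKO and 6.57, 8.20 and 6.21 CPM in parental libraries. Resistant and parental libraries overlapped (log2 fold change 0.23 ± 0.32, SE, edgeR adjusted p = 0.628), while all resistant dKO libraries lay above all parental dKO libraries (0.89 ± 0.32, SE, edgeR adjusted p = 0.0585). The change among knockouts passed in 3 of 20 alternatives, which were DESeq2 (adjusted p = 0.0188), library size alone (edgeR adjusted p = 0.0275) and without resistant dKO library 2 (edgeR adjusted p = 0.0459).

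ZEB1 (ENSG00000148516, chr10:31318495-31529814, plus strand) had 22.5, 18.6 and 19.9 CPM in resistant dKO, 30.1, 32.4 and 31.4 CPM in resistant, 24.4, 31.5 and 25.7 CPM in parental dKO and 27.3, 40.9 and 37.0 CPM in parental libraries. Resistant and parental libraries overlapped (log2 fold change -0.16 ± 0.23, SE, edgeR adjusted p = 0.626), and resistant dKO lay below parental dKO without passing the test (-0.42 ± 0.23, SE, edgeR adjusted p = 0.206). The antisense gene ZEB1-AS1 shares 366 exon bases with ZEB1 and had counts equal to 18.5% of those of ZEB1. Since the strand setting of the counting is not given in the sources used here, reads of the pair cannot be told apart.

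ZEB2 (ENSG00000169554, chr2:144364364-144524583, minus strand) had the lowest mean of the factors over all libraries, 0.893 CPM, with a range of 0.311 to 2.76 CPM. In parental libraries the mean of SNAI1 was lower, at 0.584 ± 0.344 against 0.65 ± 0.525 CPM (SD, n = 3 each), within the spread. ZEB2 had 1.04, 0.997 and 1.54 CPM in resistant dKO, 0.350, 0.366 and 0.526 CPM in resistant, 2.76, 0.839 and 0.345 CPM in parental dKO and 1.25, 0.384 and 0.311 CPM in parental libraries. The parental and parental dKO groups each held a library 1 well above the others. Its fold changes with resistance did not pass (-0.63 ± 0.77 and, among knockouts, -0.15 ± 0.70 on the log2 scale, SE, edgeR adjusted p = 0.571 and 0.895).

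VIM (ENSG00000026025, chr10:17228259-17237593, plus strand) encodes vimentin, the intermediate filament of mesenchymal cells, and was the most abundant member per length, at 86.5 CPM per kilobase over all libraries. It had 409, 390 and 655 CPM in resistant dKO, 359, 585 and 560 CPM in resistant, 135, 257 and 626 CPM in parental dKO and 263, 342 and 772 CPM in parental libraries. All groups overlapped, and library 3 was the highest of both parental-background groups. The log2 fold change was 0.13 ± 0.53 in resistant against parental cells (SE, edgeR adjusted p = 0.882) and 0.51 ± 0.53 among knockouts (SE, edgeR adjusted p = 0.511). Without both parental-background libraries numbered 3 the change among knockouts was 1.27 (edgeR adjusted p = 0.0363).

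Levels can be ordered only per length of exon. Over all 12 libraries the order in CPM per kilobase was VIM at 86.5, CDH2 at 19.7, EPCAM at 8.72, TWIST1 at 8.62, SNAI2 at 7.89, TWIST2 at 4.08, ZEB1 at 3.29, SNAI1 at 2.73, CDH1 at 0.477 and ZEB2 at 0.0356. EPCAM, TWIST1 and SNAI2 stood too close for an order, given their spread, and the order over all libraries did not hold within each group. CDH2 averaged 21.6 ± 3.8 and 43.6 ± 12.9 CPM per kilobase in resistant dKO and resistant cells, but 6.14 ± 2.39 in parental dKO and 7.52 ± 1.72 in parental cells (SD, n = 3 each). EPCAM averaged 4.40 ± 2.07 in resistant dKO, 1.64 ± 1.03 in resistant, 14.9 ± 5.06 in parental dKO and 13.9 ± 2.86 CPM per kilobase in parental cells (SD, n = 3 each). The means of EPCAM and TWIST1 thus stood above that of CDH2 in both parental-background groups, and in resistant cells EPCAM had a lower mean than every factor but ZEB2. Of the 6 factors, SNAI1 had the highest mean in resistant dKO cells, at 7.15 ± 1.38 CPM per kilobase, within the spread of TWIST1 and SNAI2, at 6.45 ± 0.62 and 6.44 ± 2.06 (SD, n = 3 each). In resistant cells TWIST1 had the highest mean of the factors, 5.04 ± 1.46 CPM per kilobase, within the spread of TWIST2 and SNAI2, at 4.36 ± 0.653 and 3.76 ± 1.87, and SNAI1 had 2.46 ± 1.17 (SD, n = 3 each). In parental dKO cells SNAI2 had the highest mean, 16.0 ± 8.63 CPM per kilobase, within the spread of TWIST1 at 11.2 ± 1.16 (SD, n = 3 each). In parental cells TWIST1 had the highest mean, 11.8 ± 0.756 CPM per kilobase, above SNAI2 at 5.31 ± 4.30 (SD, n = 3 each).

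**Figure D3:**
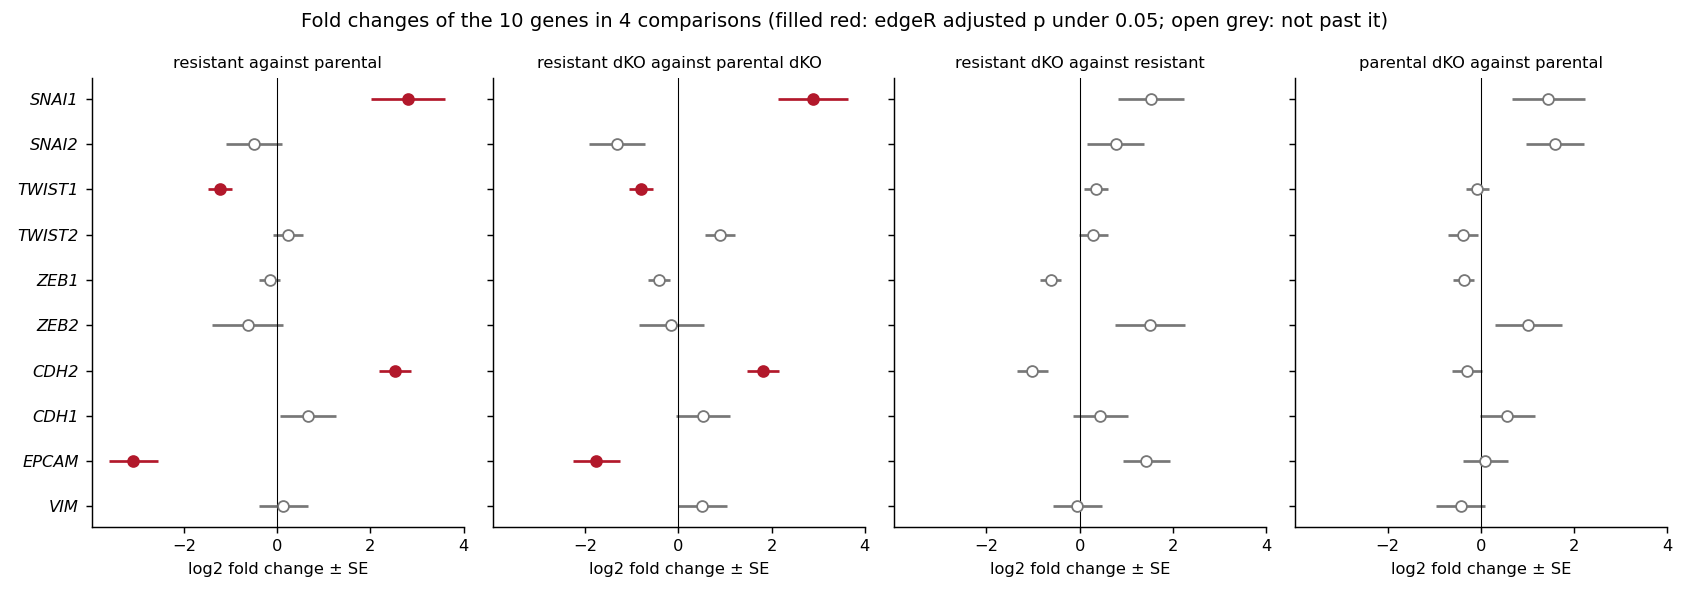
Log2 fold changes with SE (x axis) of the 10 genes (rows) in 4 comparisons, with the group before "against" on top of the ratio. Filled red points passed edgeR's test at an adjusted p of 0.05, namely SNAI1, TWIST1, CDH2 and EPCAM in the left 2 panels and none in the right 2.

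The knockout comparisons ask whether loss of KDM5A and KDM5B moves these genes in either background. No member passed edgeR's test in parental cells, where 0% of all genes passed, nor in resistant cells, where 0.212% passed. DESeq2 and limma-voom also called 0 members in each. KDM5A, itself a target of the knockout, did not pass edgeR's test in either background. Its log2 fold change was -0.92 ± 0.25 (SE) in parental cells and -1.34 ± 0.25 in resistant cells (SE, edgeR adjusted p = 0.0524). A lack of calls here therefore does not show a lack of effect. At an unadjusted p under 0.05 stood 1 of 10 members in parental cells (SNAI2), where 3.00% of all genes did, and 3 of 10 in resistant cells (ZEB1, CDH2 and EPCAM), where 7.95% did. The knockout comparisons use the same resistant and parental libraries as controls that the resistance comparison uses, so their values are set side by side without a test of likeness.

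In resistant cells the knockout libraries had less CDH2 and ZEB1 and more EPCAM, SNAI1 and ZEB2 at values that did not pass after adjustment. CDH2 averaged 107 ± 18.8 CPM in resistant dKO and 216 ± 63.7 CPM in resistant libraries (SD, n = 3 each), a log2 fold change of -1.01 ± 0.33 (SE, edgeR adjusted p = 0.393). EPCAM averaged 11.1 ± 5.21 CPM in resistant dKO and 4.13 ± 2.59 CPM in resistant libraries (SD, n = 3 each), a log2 fold change of 1.43 ± 0.51 (SE, edgeR adjusted p = 0.462). For CDH2 the groups did not overlap, while for EPCAM the third resistant dKO library, at 5.06 CPM, lay below the first resistant library, at 6.71 CPM. EPCAM passed with no filter on low counts (1.39, edgeR adjusted p = 0.0301). ZEB1 averaged 20.4 ± 1.99 CPM in resistant dKO and 31.3 ± 1.15 CPM in resistant libraries (SD, n = 3 each), a log2 fold change of -0.62 ± 0.23 (SE, edgeR adjusted p = 0.480). The log2 fold changes of SNAI1 and ZEB2 were 1.54 ± 0.71 (SE, edgeR adjusted p = 0.630) and 1.5 ± 0.75 (SE, edgeR adjusted p = 0.657). In all, ZEB2 and SNAI1 were higher and ZEB1 and CDH2 lower without overlap, 2 and 2 of 10, where 8.02% of all genes were higher and 7.17% lower in that way.

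In parental cells SNAI2 averaged 54.4 ± 29.3 CPM in parental dKO and 18 ± 14.6 CPM in parental libraries (SD, n = 3 each), a log2 fold change of 1.59 ± 0.62 (SE, edgeR adjusted p = 1). Libraries with the same number deviated together in this background, and within each number SNAI2 was higher in the knockout, by 0.79, 2.54 and 1.92 on the log2 scale. With pairs of the same number blocked in either background, SNAI2 passed (log2 fold change 1.75, edgeR adjusted p = 0.0230), while with the pairs blocked in the parental background only it did not (1.75, edgeR adjusted p = 0.418). It also passed with no filter on low counts (1.59, edgeR adjusted p = 0.00981). No other member gained a call in parental cells under either block. TWIST2 was the only member whose parental dKO and parental libraries did not overlap (-0.37 ± 0.32, SE, edgeR adjusted p = 1), where 3.20% of all genes were higher and 3.38% lower without overlap. CDH2 and EPCAM differed by -0.29 ± 0.33 and 0.10 ± 0.48 on the log2 scale (SE, edgeR adjusted p = 1 for each).

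**Figure D4:**
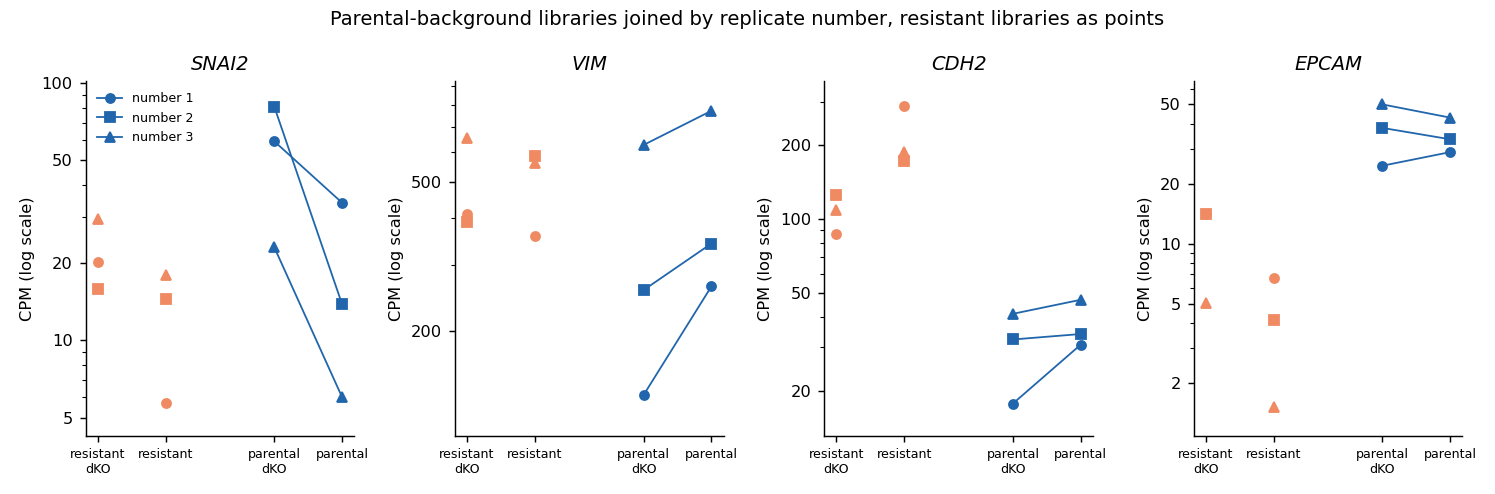
Levels of SNAI2, VIM, CDH2 and EPCAM in CPM (log y axes) by group (x axis). Parental dKO and parental libraries of the same number are joined by lines, resistant dKO and resistant libraries are points, and marker shape gives the number. SNAI2 lies higher in parental dKO than in parental libraries within each number, and VIM lower.

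Whether the knockout acted differently in the 2 backgrounds was tested by the difference of its effects. No member passed edgeR's test (DESeq2 0 and limma-voom 0), where 0.0279% of all genes passed, and 0 members stood at an unadjusted p under 0.05, where 3.78% of all genes did. EPCAM had the largest difference of the 10, 1.33 ± 0.70 (SE, edgeR adjusted p = 1), followed by SNAI2 at -0.82 ± 0.85 and CDH2 at -0.72 ± 0.46 (SE, edgeR adjusted p = 1 for each), all on the log2 scale and as the effect in resistant minus that in parental cells. EPCAM passed with pairs of the same number blocked in each background (1.43, edgeR adjusted p = 0.0262), where the resistant numbers do not pair, and not with the pairs blocked in the parental background only (1.37, edgeR adjusted p = 0.719). The other 9 genes passed under neither block.

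For the mean knockout effect over both backgrounds, edgeR, DESeq2 and limma-voom called 0 members, where edgeR called 0.100% of all genes. At an unadjusted p under 0.05 stood 6 of 10 members, where 7.54% of all genes did: ZEB1 and CDH2 lower, and SNAI1, SNAI2, ZEB2 and EPCAM higher in knockout libraries. An exact two-sided permutation test within backgrounds (400 arrangements, smallest possible p 0.005) was run on each of the 10 genes, and its p-values are not adjusted. It exchanges labels freely within each background. A form that exchanges parental labels only within a number, since those libraries pair, has 160 arrangements and a smallest possible p of 0.0125. ZEB1 was lower by 0.49 on the log2 scale on average (exact permutation p = 0.010) and lower within each of the 3 numbers of the parental background. CDH2 differed by -0.67 (exact permutation p = 0.025), also lower within each of those 3 numbers. SNAI2 differed by 1.31 (exact permutation p = 0.040) and was higher within each of the 3 numbers, and SNAI1 by 1.26 (exact permutation p = 0.045) and was higher within 2 of 3. ZEB2 differed by 1.00 (exact permutation p = 0.065) and EPCAM by 0.77 (exact permutation p = 0.140), and the other 4 genes had exact permutation p-values of 0.320 to 0.750. With the parental pairs kept, the exact permutation p was 0.0125 for ZEB1, CDH2 and ZEB2, 0.0250 for SNAI2, 0.0375 for SNAI1 and 0.138 for EPCAM, and ZEB2 alone moved to the other side of 0.05. The same test gave KDM5A a difference of -1.13 at the smallest possible p of 0.005. KDM5A also passed edgeR's test for the mean effect (edgeR adjusted p = 0.03).

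Around the 10 genes stand 7 lists of other EMT genes, here described by counts of genes that passed edgeR's test and by medians. The median log2 fold change of all genes was 0.02 in resistant against parental cells and -0.002 among knockouts. The counts stand against 15.2% higher and 12.8% lower of all genes in resistant cells, and 13.6% and 10.2% among knockouts. Of 35 mesenchymal effector genes, 33 were tested, and 24 were higher and 2 lower in resistant cells, with a median of 3.56. SPARC, a matrix glycoprotein, had 2340, 1120 and 916 CPM in resistant against 0, 0.320 and 2.43 CPM in parental libraries (log2 fold change 10.58 ± 1.27, SE, edgeR adjusted p = 1e-04). COL1A1, a chain of type I collagen, had 939, 729 and 345 CPM in resistant against 0.119, 0.384 and 2.28 CPM in parental libraries (9.45 ± 1.24, SE, edgeR adjusted p = 0.000183). NCAM1, a neural adhesion molecule, rested on 4659 reads in resistant and 3 in parental libraries, a ratio of 1530 (95% exact counting interval 522 to 7400). S100A4, a calcium-binding protein, and AXL, a receptor tyrosine kinase, were the 2 that fell (-1.82 ± 0.61 and -1.46 ± 0.42, SE, edgeR adjusted p = 0.0420 and 0.0221). Among knockouts, 21 were higher and 2 lower, with a median of 2.63.

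Of these mesenchymal genes, 4 are also in the list of fibroblast markers, and without them 21 of 29 were higher and 2 lower. The 9 fibroblast markers summed to 2550 to 4460 CPM in resistant dKO, 361 to 962 in resistant, 2.56 to 28.7 in parental dKO and 1.91 to 8.85 in parental libraries, and 6, 5, 3 and 1 of them reached 1 CPM on average in those groups. COL1A1 held most of that sum in the resistant-background libraries, and the fibroblast surface marker THY1 lay at 0 to 0.345 CPM in all libraries. DCN, the matrix proteoglycan of fibroblasts, was at 0.0584 to 0.105 CPM in resistant and 1.08 to 3.62 CPM in parental libraries. Other fibroblast markers were higher in resistant cells. COL6A3 had 452 reads in resistant against 1 in parental libraries, and PDGFRB 46 against 2. COL1A2 rose too (3.69 ± 1.17, SE, edgeR adjusted p = 0.0326), while FAP did not pass (-0.10 ± 0.98, SE, edgeR adjusted p = 0.95). Of 5 endothelial and 6 leukocyte markers 0 reached 1 CPM in any group, while 3 or 4 of 5 mesothelial markers did. The part of other cell types in the result was not tested.

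Of 15 epithelial transcription and splicing factors, 10 were tested, and 1 was higher and 6 lower in resistant cells, with a median of -2.92. ESRP2, a splicing factor of epithelial isoforms, had 0.934, 0.366 and 0.578 CPM in resistant against 11.7, 13.7 and 15.1 CPM in parental libraries (-4.41 ± 0.46, SE, edgeR adjusted p = 3.29e-05). KLF4, a zinc-finger factor of epithelia, fell as well (-3.94 ± 0.68, SE, edgeR adjusted p = 0.00126), and EHF, an epithelial ETS factor, had 2 reads in resistant against 414 in parental libraries. The exception was TFAP2C, an AP-2 factor, with 3.50, 4.33 and 3.05 CPM in resistant against 0.0597, 0 and 0.104 CPM in parental libraries (edgeR adjusted p = 0.00031). Among knockouts, 1 was higher and 5 lower, with a median of -1.84.

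Epithelial junction and surface genes were mixed. Of 30, 28 were tested, and 5 were higher and 7 lower, with a median of 0.40. The simple-epithelium keratins KRT8 and KRT18 rose (2.62 ± 0.40 and 2.21 ± 0.44, SE, edgeR adjusted p = 0.000546 and 0.00308). KRT19 and the tight junction claudin CLDN7 fell (-6.60 ± 0.81 and -4.43 ± 0.58, SE, edgeR adjusted p = 0.000118 and 0.00018), and CLDN3, another claudin, had 1 read in resistant against 391 in parental libraries. Among knockouts, 7 were higher and 5 lower, with a median of 0.71. CLDN7 was the only gene of the 7 lists that passed for the knockout in resistant cells, where 0.212% of all genes passed, at 3.66, 4.26 and 1.42 CPM in resistant dKO against 0.117, 0.548 and 0.263 CPM in resistant libraries (3.32 ± 0.57, SE, edgeR adjusted p = 0.0332). In parental cells 0 genes of the 7 lists passed for the knockout, where 0% of all genes passed.

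Of 13 other EMT transcription factors, 10 were tested, and 3 were higher and 3 lower, with a median of 0.26. TCF4, the E-protein E2-2, had 28.3, 29.2 and 22.5 CPM in resistant against 0.179, 0.0640 and 0.104 CPM in parental libraries (7.76 ± 0.52, SE, edgeR adjusted p = 1.33e-06), and the homeobox gene GSC and the SNAIL relative SNAI3 rose too (3.08 ± 0.60 and 2.22 ± 0.57, SE, edgeR adjusted p = 0.0027 and 0.012). FOXQ1, a forkhead factor, had 0 reads in resistant and 1245 in parental libraries and so was at least 423-fold lower, against a floor of 3 counts over the group. PRRX1 had 2 reads in resistant and 86 in parental libraries, a ratio of 43.8 with parental on top (95% exact counting interval 11.8 to 367), and FOXC1 fell (-1.05 ± 0.33, SE, edgeR adjusted p = 0.0309). Among knockouts, 3 were higher and 1 lower, with a median of 0.37.

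Of 20 genes of TGF-beta signalling to EMT, all tested, 5 were higher and 3 lower, with a median of 0.25. The ligand gene TGFB2 had 135, 74.8 and 94.3 CPM in resistant against 0.717, 1.99 and 1.66 CPM in parental libraries (6.12 ± 0.48, SE, edgeR adjusted p = 4.31e-06). The ligand gene BMP7 had 1628 reads in resistant and 0 in parental libraries and so was at least 533-fold higher, and ID2, an inhibitor of basic helix-loop-helix factors, rose (3.36 ± 0.56, SE, edgeR adjusted p = 0.000932). HMGA2, an architectural chromatin protein, JAG1, a Notch ligand, and SKI, a SMAD corepressor, fell (-6.15 ± 0.52, -1.41 ± 0.46 and -1.02 ± 0.26, SE, edgeR adjusted p = 7.05e-06, 0.0348 and 0.011). Among knockouts, 5 were higher and 3 lower, with a median of 0.20.

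Of 11 adherens junction catenins and partners, 10 were tested, and 3 were higher and 0 lower, with a median of 0.77. NECTIN1, a junction adhesion molecule, and CTNND1, p120-catenin, rose (1.40 ± 0.39 and 1.07 ± 0.24, SE, edgeR adjusted p = 0.0188 and 0.00589). Among knockouts the counts were 3 higher and 0 lower as well, with a median of 0.64. Of 22 corepressors and turnover factors of SNAIL, ZEB and TWIST proteins, all tested, 0 were higher and 4 lower, with a median of -0.57, where 15.2% of all genes were higher and 12.8% lower. The ubiquitin ligase subunits FBXW7 and BTRC, of which BTRC marks SNAIL for degradation, and the corepressor RCOR1 fell (-1.46 ± 0.24, -0.98 ± 0.25 and -1.12 ± 0.28, SE, edgeR adjusted p = 0.000993, 0.0115 and 0.00936). Among knockouts, 0 were higher and 1 was lower, with a median of -0.42.

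**Figure D5:**
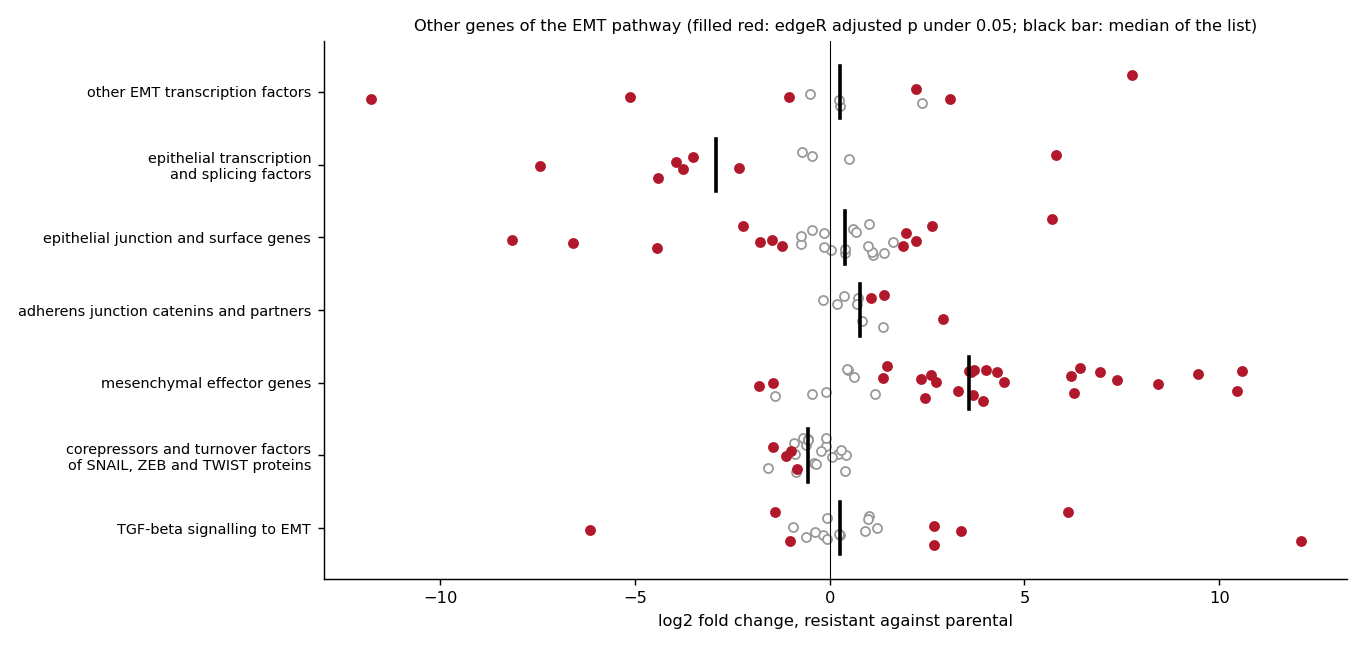
Log2 fold change of resistant against parental cells (x axis) for each tested gene of 7 lists (rows, with random vertical scatter). Filled red points passed edgeR's test at an adjusted p of 0.05 and black bars are list medians, 3.56 for mesenchymal effector genes and -2.92 for epithelial transcription and splicing factors. The outermost points, FOXQ1 and BMP7, are fitted values with 0 reads in a group.

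Genes whose log2 levels ran most like a member over the 12 libraries were sought among 12981 genes, as a description with no test, since all libraries share the 4 groups. For CDH2 they were TXNDC15 and HS3ST3B1 (Pearson r = 0.987 and 0.978), for EPCAM ZBED6CL and CYBRD1 (0.976 and 0.975), and for TWIST1 TCTEX1D2 and PLEKHA5 (0.973 and 0.972). For SNAI1 they were COG4 and PSME2 (0.961 and 0.956), and for VIM CDKN2C is given (0.959). For SNAI2 they were TOMM6 and XAB2 (0.918 and 0.902), and for TWIST2 HK1 is given (0.899). ZEB1 ran most like APPL1 and TOP2B (0.922 and 0.912), and CDH1 like PPP1R32 and ING4 (0.959 and 0.936).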

How the data were processed

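The authors deposited raw read counts per gene for 12 libraries. Per the labels' protocols, poly(A) RNA was made into libraries with a directional kit. Per the submitters' processing notes, the tools were featureCounts 2.0.1, STAR 2.7.10a and Trim Galore 0.6.10, with GRCh38. The sources used here do not give the annotation, the strand setting or the handling of reads with several positions. The table held 59542 rows with 59498 identifiers, and the 44 that stood on 2 rows had 0 reads. In 2 columns the resistant line's name was misspelled, and the remainder of each name gave its sample. No 2 libraries of a group agreed within sampling noise (24.1 to 194.7 as chi-square over degrees of freedom).

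From these counts, edgeR 4.0.16 (R 4.3.3) kept 17947 genes by filterByExpr, applied TMM factors, fitted a mean for each of 4 groups over all 12 libraries (8 residual degrees of freedom) and tested 6 contrasts with its quasi-likelihood test, with Benjamini-Hochberg adjustment over all genes at 0.05. SE is the absolute log2 fold change divided by the square root of F. Positions and 3′ UTRs came from GENCODE 29 on GRCh38, microRNAs and promoters from RefSeq on GRCh38.p14. Counting intervals and floors reflect counting error alone, since reads have no molecular identifiers.

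The members and lists were chosen with earlier results of these data known. Named list genes are up to 3 per list and direction, by fold, among those that passed with at least 1 CPM in the higher group. Genes with a like pattern are the 2 with the highest Pearson r per member, except for ZEB2, which was too low. A few genes chosen by these rules are left out of the text. Replicate numbers come from the labels. Deviations from group means over 11878 genes correlated at 0.75, 0.889 and 0.882 between same-numbered parental dKO and parental libraries, so these were taken as paired, and at 0.633, -0.328 and 0.751 between resistant dKO and resistant libraries, which were not. Alternatives were DESeq2 1.42.0, limma-voom (limma 3.58.1), a filter of 1 count in all or of 1 CPM in 3 libraries, scaling by median-of-ratios factors or by library size, the number as a block over all libraries or within each background, each library left out, and both parental-background libraries numbered 3 left out. A block in the parental background only and a permutation test that keeps the parental pairs were added after seeing the data.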

Additional observations from a re-analysis of the deposited data

How the results depend on the processing

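Of 1104 recomputed fold changes of the members, 1044 kept their direction and side of the threshold, 17 lost a call, 20 gained a call and 23 changed sign. None of those 23 passed in either fit. CDH2, EPCAM and TWIST1 in resistant against parental cells and CDH2 among knockouts passed in all 20 alternatives. The cause was not tested for any change below.

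Members called in parental cells by the knockout came to 1 with no filter beyond 1 count and 1 with the replicate block within each background. In resistant cells they came to 1 and 3 (CDH2, EPCAM and SNAI1 under the block, where the numbers do not pair), for the difference of effects to 1 under that block, and for the mean effect to 2 and 5. Leaving out single libraries gave 3 to 4 members in resistant against parental cells and 1 to 4 among knockouts.

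For all genes, leaving out single libraries gave 3081 to 5411 calls in resistant against parental cells, 2714 to 4696 among knockouts, 4 to 50 for the knockout in resistant cells, 3 to 8 for the difference and 4 to 19 for the mean effect. For the knockout in parental cells, calls were 83 with no filter, 11 with DESeq2, 1 with limma-voom, 1 with the block over all libraries and 154 with the block within backgrounds. In resistant cells they were 451 with no filter, 249 with DESeq2, 939 with the block within backgrounds, 141 with the block in the parental background and 66 without both libraries numbered 3. For the difference they were 11 by library size, 161 with no filter, 67 with DESeq2, and 18, 274 and 28 with the 3 blocks in that order, and 10 without both libraries numbered 3. For the mean effect they were 310 with no filter, 127 with DESeq2, 4 with limma-voom, 784 with the block within backgrounds and 56 with the parental block. The within-background blocks give no value between backgrounds, since blocks are nested in them.

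Signs changed when single libraries were left out, over log2 ranges of -1.0 to 0.26 (ZEB2, resistant against parental), -0.17 to 1.96 (ZEB2, parental knockout), -0.61 to 0.99 (ZEB2, among knockouts), -0.20 to 1.88 (SNAI1, parental knockout), -0.94 to 0.37 (SNAI2, resistant against parental), -0.11 to 0.067 (TWIST2, mean effect) and -0.17 to 0.32 (EPCAM, parental knockout). For VIM they were -0.15 to 0.71 in resistant against parental, -1.23 to 0.15 in the parental knockout, -0.33 to 0.084 in the resistant knockout and -0.64 to 0.046 for the mean effect. ZEB2 among knockouts was 0.27 with limma-voom and 0.17 with the block over all libraries, and SNAI1 in the parental knockout -0.018 without both libraries numbered 3.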
